A study of Mus musculus with 48 samples.

Results

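The 10 genes described here encode triglyceride lipases, related lipid hydrolases and regulators of triglyceride breakdown in the liver. They are the patatin-domain proteins Pnpla2, Pnpla3, Pnpla7 and Pnpla8, the ATGL co-activator Abhd5 and the ATGL inhibitor G0s2, and the lipases Lipe, Mgll, Lipa and Ces1d. The genes were picked by name and role, with no threshold on a measured value, and matched by symbol to 10 of the 55414 gene identifiers of the count table. All 10 passed the filter on low counts that left 15414 genes for testing.

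Stored triglyceride is broken down in steps. At the surface of the lipid droplet, ATGL (Pnpla2) takes the leading fatty acid from a triglyceride, hormone-sensitive lipase (Lipe) then acts on the diacylglycerol, and monoacylglycerol lipase (Mgll) releases the last fatty acid. ABHD5 activates ATGL, G0S2 blocks it, and PNPLA3 sits on the droplet and binds ABHD5. Acid lipase (Lipa) does the same work in lysosomes, and Ces1d acts in the endoplasmic reticulum of hepatocytes, where it feeds fatty acids into secreted lipoproteins.

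The genes are spread over the genome. On NCBIM37, an older build than that of the counts, the droplet genes of the ATGL step are Pnpla2 at chr7:148641097-148646642 (plus strand), Abhd5 at chr9:122260726-122290642 (plus strand) and G0s2 at chr1:195098355-195099382 (minus strand). The other patatin-domain genes are Pnpla3 at chr15:83998246-84019942 (plus strand), Pnpla7 at chr2:24831553-24909577 (plus strand) and Pnpla8 at chr12:45322357-45413330 (plus strand). Of the remaining lipases, Lipe at chr7:26164546-26183729 (minus strand) shares its chromosome with Pnpla2, and the others are Mgll at chr6:88674406-88778354 (plus strand), Lipa at chr19:34566808-34601964 (minus strand) and Ces1d at chr8:95689967-95721737 (minus strand). None of the 10 lies on a sex chromosome.

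Liver RNA-seq was available for 48 FCG mice on a C57BL/6 background, 6 in each of 8 groups, with 1 library per mouse. In FCG mice, a model with 4 core genotypes, the testis-determining gene Sry is deleted from the Y chromosome (written XY- in the labels) and supplied by an autosomal transgene (SryTg), so that gonads and sex chromosomes are inherited apart. Genotypes XX and XY- have ovaries (groups XX Ov and XY Ov), and XX;SryTg and XY-;SryTg have testes (XX Te and XY Te). In each genotype 6 mice kept their gonads (Intact) and 6 had gonadectomy (GDX) at 75 days of age. All 48 mice were given a HFD with 60% of calories from fat from 15 to 17 weeks of age, for 11 weeks in Intact and 15 weeks in GDX mice by the labels, while the study's methods give other lengths. Every value below is therefore a level under HFD. Effects of GDX cannot be told apart from those of the longer diet or of the older age at harvest that comes with it. Nor can they be told apart from any difference in when the 2 cohorts were handled.

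The libraries held 13071874 to 20045141 reads on genes. Reads outside genes made up 3.47 to 6.20% in Intact and 8.52 to 11.3% in GDX libraries, without overlap. Multimapping reads made up 8.59 to 14.4% in all groups but XY Te Intact, where 4 of 6 mice were at or above 15% and the highest reached 18.9%. Xist and 4 Y-linked genes followed the labels in all 48 mice, although mouse 4 of XX Te Intact had Y-linked reads at a low level (Ddx3y at 4.20 CPM, against at least 44.3 CPM in XY mice). Leaving out this mouse changed 1 call of the 10 genes, that of G0s2 after castration. The summed level of 8 hepatocyte markers was 60819.5 to 138971 CPM, and of 7 adipocyte markers Adipoq, Lep and Plin1 did not reach 3 reads in any mouse, while Cfd, Cidea and Adrb3 passed the filter for testing. In bulk liver, fewer cells of a type and less RNA per cell cannot be told apart.

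Levels are given in CPM, with library sizes scaled by TMM. Between genes they are compared only per kb of exon, with exon lengths from the NCBIM37 annotation. Averaged over the 48 mice, Ces1d stood at the top with 436 CPM per kb, followed by G0s2 (116), Lipa (105), Mgll (50.7) and Pnpla8 (50.3). ATGL was lower, at 21.1 CPM per kb for Pnpla2, as were Pnpla7 (13.1), Abhd5 (8.87) and Lipe (2.58). Pnpla3 was the least abundant, at 0.252 CPM per kb and a median of 14.5 reads per mouse. Its values in a given mouse therefore carry a large counting error, whereas the other 9 genes had at least 61 reads in every mouse. On this scale the inhibitor G0s2 was more abundant than ATGL itself and the activator Abhd5 less abundant, in every group.

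**Figure D1:**
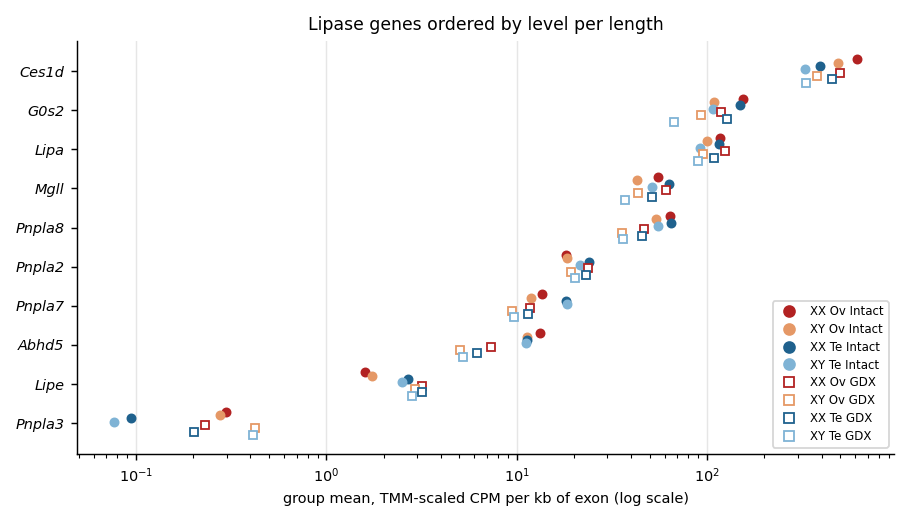
Mean level of each gene in each of the 8 groups, in TMM-scaled CPM per kb of exon on a log axis (circles, Intact; squares, GDX). The order of the genes spans from Pnpla3, 0.252 CPM per kb over all mice, to Ces1d, 436 CPM per kb, and differences between groups are small beside it.

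Gonads in Intact mice were examined first, as mice with ovaries (Ov Intact, n = 12) against mice with testes (Te Intact, n = 12), over both chromosome complements. Pnpla3 and Ces1d were higher with ovaries, and Pnpla7, Lipe and Pnpla2 were higher with testes. These 5 of 10 genes passed an adjusted p under 0.05 (edgeR quasi-likelihood test, Benjamini-Hochberg over all 15414 genes). Of all tested genes 25.3% passed, 14.1% higher with ovaries and 11.3% higher with testes, so that 55.6% of calls were higher with ovaries, against 68.1% with libraries scaled by their totals. Pnpla8, Abhd5, G0s2, Mgll and Lipa did not pass. The differences of the called genes, apart from Pnpla3, were between 1.25-fold and 1.56-fold.

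Pnpla7, a patatin-domain protein that acts on lysophospholipids at the endoplasmic reticulum and lipid droplets, gave the smallest adjusted p of the set. Its level was 73.3 to 118 (median 94.3) CPM in Ov Intact and 99.9 to 179.8 (median 135) CPM in Te Intact mice. All 12 Ov Intact mice lay below the Te Intact median, and 7 of them below every Te Intact mouse. The means were 95.4 ± 13.2 and 137 ± 23.2 CPM (SD, n = 12 each), 1.44-fold higher with testes (log2 fold change -0.53, SE 0.08, adjusted p = 1.12e-06). With testes the XX and XY group means were 137 ± 22.9 and 137 ± 25.7 CPM (SD, n = 6 each). The call held in each of 48 fits that left out 1 mouse.

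Lipe, the hormone-sensitive lipase, showed the same direction at a much lower level. It ranged from 4.94 to 11.7 (median 6.40) CPM in Ov Intact and from 7.80 to 16.6 (median 11.4) CPM in Te Intact mice, and 7 of 12 mice with ovaries were below every mouse with testes. Means were 7.51 ± 2.49 against 11.8 ± 2.69 CPM (SD, n = 12 each; log2 fold change -0.64, SE 0.13, adjusted p = 0.000266). On the NCBIM37 annotation 264 exonic bases of Lipe are shared with a gene on the opposite strand, 4732471J01Rik, and 90 of Mgll with Gm16628. The strand setting of the counting is not given in the sources used here. Whether reads there were counted or set aside as ambiguous is therefore not known.

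Pnpla2, the ATGL gene, differed less. Its level was 35.4 to 81.8 (median 58.0) CPM with ovaries and 52.1 to 92.4 (median 70.4) CPM with testes, and the ranges overlapped widely. The means were 55.0 ± 13.3 and 68.7 ± 12.9 CPM (SD, n = 12 each; log2 fold change -0.32, SE 0.10, adjusted p = 0.0188). Without mouse 5 of XY Te Intact the call was lost (adjusted p = 0.0560), and with libraries scaled by their totals it was lost as well (adjusted p = 0.0935), as it was in a fit of only the Intact groups (adjusted p = 0.123). The co-activator Abhd5, at 40.0 ± 11.5 and 36.8 ± 6.62 CPM, had a log2 fold change of 0.12 (95% interval -0.13 to 0.36). For the inhibitor G0s2, at 111 ± 51.1 and 108 ± 34.7 CPM, it was 0.04 (95% interval -0.32 to 0.41). Both intervals include 0. With the share of multimapping reads as a covariate, an alternative added after seeing the data, Abhd5 was called at 0.40 (adjusted p = 0.00592).

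Ces1d, a carboxylesterase that hydrolyses triglyceride for lipoprotein assembly, was 1.53-fold higher with ovaries. Its level ran from 688 to 2556 (median 1142) CPM in Ov Intact and from 653 to 1129 (median 814) CPM in Te Intact mice, and 7 of 12 mice with ovaries exceeded every mouse with testes. The means were 1311 ± 584 and 852 ± 151 CPM (SD, n = 12 each; log2 fold change 0.62, SE 0.15, adjusted p = 0.00223). The spread with ovaries was wide, and the mice high in Ces1d were those with a low TMM factor: over the 24 Intact mice the Spearman correlation of the deviations from group means was -0.83. Its part in the result was not tested. Ces1d lies among closely related carboxylesterase genes that can split or share reads, which makes its count less certain.

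Pnpla3, the droplet protein known for a human variant that raises liver fat, was higher with ovaries at very low read numbers. The 12 Ov Intact mice ranged from 0.208 to 3.50 (median 0.904) CPM. The 12 Te Intact mice ranged from 0 to 0.768 (median 0.395) CPM, with no read in mouse 5 of XX Te Intact, which allows up to 0.167 CPM (3 reads), and under 3 reads in 2 mice of XY Te Intact. Of the mice with ovaries 7 of 12 were above every mouse with testes. The means were 1.34 ± 0.994 and 0.399 ± 0.281 CPM (SD, n = 12 each), a 3.31-fold difference (log2 fold change 1.73, SE 0.50, adjusted p = 0.00962). With the multimapping covariate the value was 1.02 (adjusted p = 0.134).

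Mgll, which ends the chain by cleaving monoacylglycerol, was at 167 to 350.0 (median 240.3) CPM with ovaries and 186 to 356 (median 287) CPM with testes. It missed the threshold (log2 fold change -0.23, SE 0.09, adjusted p = 0.0613), and leaving out any of 9 mice brought it under. It was also called by the DESeq2 Wald test (adjusted p = 0.0430) and with a filter on a mean of at least 10 counts (adjusted p = 0.0428). Alternatives added after seeing the data called it too. These were the multimapping covariate, at -0.34 (adjusted p = 0.00593), and a fit without the 4 mice at or above 15% multimapping (adjusted p = 0.0265). That fit takes out 4 of the 6 mice of XY Te Intact. Lipa, the lysosomal lipase, was at 322 ± 41.0 and 307 ± 60.1 CPM, with a log2 fold change of 0.08 (95% interval -0.07 to 0.22). Pnpla8, a mitochondrial and peroxisomal phospholipase, was at 233 ± 39.6 and 237 ± 31.6 CPM, with -0.03 (95% interval -0.17 to 0.11). Beside these results, 5 of 7 lymphocyte markers and 4 of 8 macrophage markers were called higher with ovaries, and of 8 hepatocyte markers 2 were called, both higher with testes. Of the 3 tested adipocyte markers 2, Cfd and Cidea, were called higher with testes. The summed adipocyte list was at 2.06 to 5.61 CPM in Ov Intact and 6.07 to 45.6 CPM in Te Intact mice, without overlap. This sum includes Cfd and Cidea, while Adipoq, Lep and Plin1 did not reach 3 reads in any mouse. The part of the cell type markers in the gene differences was not tested.

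**Figure D2:**
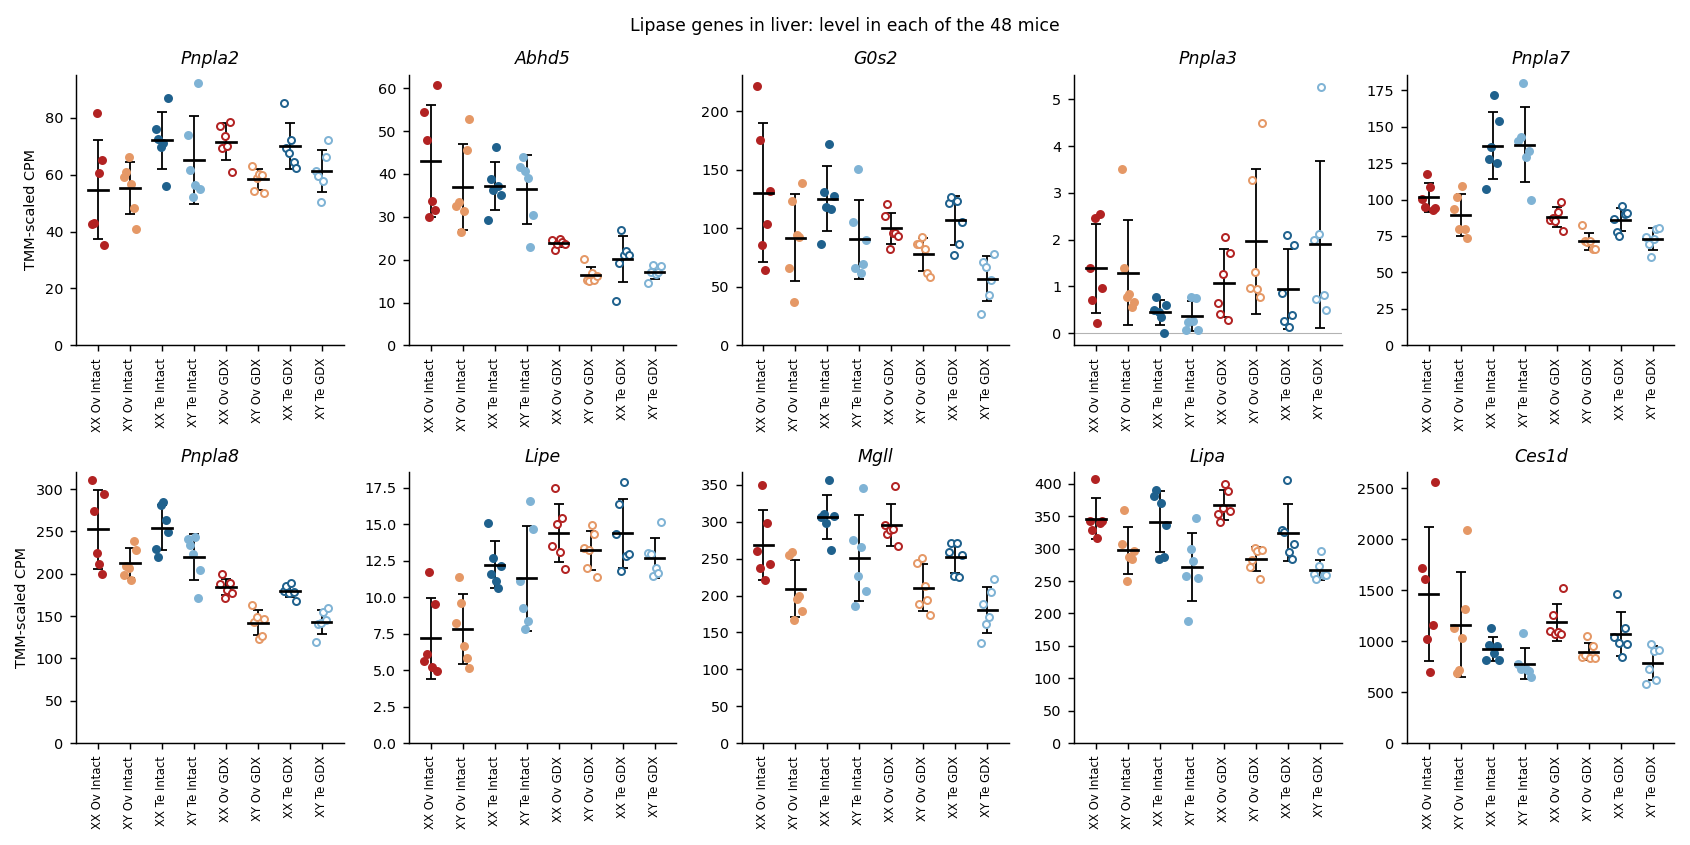
Level of each of the 10 genes in every mouse, in TMM-scaled CPM on a linear axis, by group (filled, Intact; open, GDX; black bars, mean and SD of 6 mice). Pnpla7 is highest in the 2 Te Intact groups (137 ± 22.9 and 137 ± 25.7 CPM), Lipe is lowest in the 2 Ov Intact groups (7.19 ± 2.77 and 7.83 ± 2.38 CPM), and Abhd5 is lower in the 4 GDX groups than in the 4 Intact groups.

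The promoters of some members are shown, as given by RefSeq on GRCm38.p6, from 250 bases before to 50 after the start site. Of the 10 genes 9 matched an entry, Lipe and Mgll with 2 each, and Ces1d matched none. Capitals mark matches, on either strand, to CCAAT (the NF-Y box), TTCNNNGAA (a STAT5 site), CACGTG (an E-box) or AGGTCA (the nuclear receptor core motif). The Pnpla3 promoter was chosen as the reference, that of Lipa because its level went with Pnpla3 within groups, that of Pnpla7 for the gonadal difference and that of Abhd5 for the GDX difference. Other pairs went together more strongly than Pnpla3 and Lipa (Spearman correlation 0.57). These include Pnpla2 with Lipe (0.67) and Pnpla8 with Abhd5 (0.64), and the promoters of Pnpla2, Lipe, Pnpla8 and Mgll are not shown.
Pnpla3 (chr15:84167566-84167865, plus strand): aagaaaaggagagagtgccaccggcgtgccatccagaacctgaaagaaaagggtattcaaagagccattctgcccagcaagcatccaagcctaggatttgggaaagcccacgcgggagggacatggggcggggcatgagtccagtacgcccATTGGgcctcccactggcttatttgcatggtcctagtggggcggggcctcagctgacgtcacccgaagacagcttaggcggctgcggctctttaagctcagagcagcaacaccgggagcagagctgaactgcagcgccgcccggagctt
Lipa (chr19:34527425-34527724, minus strand): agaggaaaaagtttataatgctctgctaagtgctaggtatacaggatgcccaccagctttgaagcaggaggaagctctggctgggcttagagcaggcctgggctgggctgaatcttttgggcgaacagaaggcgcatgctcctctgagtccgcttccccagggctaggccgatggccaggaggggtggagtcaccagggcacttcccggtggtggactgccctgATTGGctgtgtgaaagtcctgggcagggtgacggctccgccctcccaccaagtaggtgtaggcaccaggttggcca
Pnpla7 (chr2:24975783-24976082, plus strand): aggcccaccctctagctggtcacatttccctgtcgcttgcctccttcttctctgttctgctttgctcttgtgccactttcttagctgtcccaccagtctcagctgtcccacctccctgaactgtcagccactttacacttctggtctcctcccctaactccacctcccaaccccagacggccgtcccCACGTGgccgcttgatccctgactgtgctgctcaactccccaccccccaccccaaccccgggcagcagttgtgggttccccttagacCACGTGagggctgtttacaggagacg
Abhd5 (chr9:122351366-122351665, plus strand): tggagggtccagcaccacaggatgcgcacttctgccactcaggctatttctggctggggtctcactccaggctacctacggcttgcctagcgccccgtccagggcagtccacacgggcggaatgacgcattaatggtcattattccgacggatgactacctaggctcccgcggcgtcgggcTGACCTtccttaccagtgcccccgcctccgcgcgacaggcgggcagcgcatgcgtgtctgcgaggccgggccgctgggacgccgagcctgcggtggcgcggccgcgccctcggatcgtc
The NF-Y box lies on the reverse strand in Pnpla3, with its leftmost base 99 bases before the start site, and in Lipa, 26 bases before it. It was found in 2 of the 11 promoters of the set and in 37.4% of all 32851 promoters of this length. The E-box was found in 3 of the 11, those of Pnpla7, Lipe and Mgll, and in 7.15% of all. A STAT5 site was found only in 1 of the 2 Lipe promoters (8.3% of all promoters), and AGGTCA only in Abhd5 (16.3% of all). The matches describe letters in these windows and do not show binding. Any link of the NF-Y box with the levels of Pnpla3 and Lipa was not tested. No promoter data of these mice were analysed here.

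Sex chromosomes were compared as XX against XY mice, averaged over gonads and GDX (n = 24 each). Here 7 of the 10 genes were called, and all 7 were higher in XX: Mgll, Lipa, Pnpla8, G0s2, Ces1d, Abhd5 and Pnpla7. Of all tested genes 36.7% were called, 21.9% with the higher level in XX and 14.8% with that in XY. The direction of calls depended on the scaling, with 59.8% of them higher in XX with TMM and 28.1% with library totals. The differences were small, from 1.13-fold for Pnpla7 to 1.47-fold for G0s2. Neither Pnpla2 (log2 fold change 0.15, SE 0.07, adjusted p = 0.0843), nor Lipe (log2 fold change 0.07, SE 0.09, adjusted p = 0.570), nor Pnpla3 (log2 fold change -0.37, SE 0.34, adjusted p = 0.424) passed.

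The lipases of the last step and of the lysosome gave the smallest adjusted p values here together with Pnpla8. Mgll was at 221 to 356 (median 278) CPM in XX and 136 to 346 (median 202) CPM in XY mice, and all 24 XX mice were above the XY median (log2 fold change 0.40, SE 0.07, adjusted p = 2.12e-06). Lipa was at 284 to 407 (median 342) CPM in XX and 189 to 359 (median 282) CPM in XY mice, again with all 24 XX mice above the XY median and 8 above every XY mouse (log2 fold change 0.30, SE 0.05, adjusted p = 6.23e-06). Pnpla8 was at 218 ± 44.6 and 179 ± 41.6 CPM (SD, n = 24 each; log2 fold change 0.29, SE 0.05, adjusted p = 3.37e-06), and after GDX its 12 XX and 12 XY mice did not overlap. Each of these 3 calls held in every fit with 1 mouse left out and with libraries scaled by their totals.

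Of the ATGL partners, the inhibitor G0s2 was at 64.2 to 222 (median 113) CPM in XX and 26.9 to 150.2 (median 74.6) CPM in XY mice, with 23 of 24 XX mice above the XY median (log2 fold change 0.56, SE 0.13, adjusted p = 0.000483). The activator Abhd5 was at 31.0 ± 11.9 and 26.8 ± 11.9 CPM (SD, n = 24 each; log2 fold change 0.25, SE 0.09, adjusted p = 0.0166). The inhibitor and the activator were thus both higher in XX, while the ATGL gene itself was not called. The call of Abhd5 was lost without mouse 6 of XX Ov Intact (adjusted p = 0.108) or mouse 3 of XY Te Intact (adjusted p = 0.0623). That of Pnpla7 (0.18, SE 0.05, adjusted p = 0.00735) was lost without mouse 6 of XY Ov Intact (adjusted p = 0.0753), and that of Pnpla2 was gained without mouse 5 of XY Te Intact (adjusted p = 0.0251). Ces1d, at 1161 ± 392 and 905 ± 309 CPM, differed by 0.36 (SE 0.11, adjusted p = 0.00620). Scaling by library totals left 5 calls, without Pnpla7 (0.08, adjusted p = 0.330) and Abhd5 (0.16, adjusted p = 0.0930). The same 2 calls were lost with no filter on low counts (adjusted p = 0.132 and 0.106) and with a mean of at least 10 counts (adjusted p = 0.0671 and 0.0769), and 1 surrogate variable added a call of Pnpla2 (adjusted p = 0.0129).

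Within each cohort the 7 called genes were again higher in XX, and fewer of them were called in Intact mice. Pnpla3 differed in sign between the cohorts, at 0.20 (adjusted p = 0.854) in Intact and -0.93 (adjusted p = 0.0900) in GDX mice, neither called, and so did Lipe, at -0.01 (adjusted p = 0.984) and 0.15 (adjusted p = 0.378). In Intact mice 10.7% of all genes were called (4.27% higher in XX, 6.42% in XY), and of the 10 genes Lipa 0.28 (adjusted p = 0.00770), Mgll 0.32 (adjusted p = 0.0146) and Pnpla8 0.23 (adjusted p = 0.0189) were higher in XX by these log2 fold changes. In GDX mice 34.3% were called (19.5% higher in XX, 14.8% in XY), and the 7 genes named above were all among them. There Mgll differed by 0.48 (adjusted p = 4.22e-05), Lipa by 0.33 (adjusted p = 0.000388) and G0s2 by 0.63 (adjusted p = 0.00535). None of the 10 had a called difference between the cohorts: the interaction of chromosomes and GDX, called for 2.12% of all genes by edgeR (0.402% with a larger and 1.72% with a smaller difference of XX minus XY after GDX), took 0 of the 10, also at an unadjusted p under 0.05 and with DESeq2.

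Other measures moved with the chromosomes as well. In GDX mice, reads outside genes were 8.52 to 10.1% in XX and 9.98 to 11.3% in XY libraries, and TMM factors were 0.946 to 1.07 in XX and 1.07 to 1.24 in XY. Summed macrophage markers ranged from 164 to 821 CPM in XX and 331 to 1369.9 CPM in XY mice, and 7 of 8 were called higher in XY. Summed neutrophil markers ranged from 0.157 to 30.5 CPM in XX and 1.20 to 831 CPM in XY mice, with 7 of 7 tested markers called higher in XY. Of 8 hepatocyte markers 1 was called, higher in XX. With the share of reads outside genes as a covariate, added after seeing the data, Pnpla7 0.11 (adjusted p = 0.116), Abhd5 0.12 (adjusted p = 0.246) and Ces1d 0.24 (adjusted p = 0.0672) were no longer called, Pnpla2 0.19 (adjusted p = 0.0492) was, and Mgll, Lipa, Pnpla8 and G0s2 kept their calls. The part of the cell type markers was not tested.

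Gonadectomy was compared with intact gonads separately in mice born with ovaries (ovariectomy effect, Ov GDX against Ov Intact) and with testes (castration effect, Te GDX against Te Intact). After ovariectomy Lipe and Pnpla2 were higher and Abhd5, Pnpla8, Ces1d and Pnpla7 lower. After castration Pnpla3 was higher and Abhd5, Pnpla7, Pnpla8, G0s2 and Mgll lower. A called gene was common in both comparisons, since 69.4% of all genes passed for ovariectomy (36.0% higher, 33.4% lower) and 63.3% for castration (33.4% higher, 29.9% lower). The counts of 6 and 6 of 10 are near that background and are not a result about these genes as a set. Library make-up, diet length, age at harvest and GDX cannot be told apart here. Cell type markers were called in both directions. After ovariectomy, called higher and lower were 2 and 3 of 8 hepatocyte and 1 and 3 of 8 macrophage markers. For neutrophil and lymphocyte markers these counts were 0 and 4 of 7 each. They were 1 and 1 of 6 endothelial, 2 and 2 of 6 stellate and 3 and 0 of 5 cholangiocyte markers. After castration they were 1 and 2 hepatocyte, 2 and 1 macrophage, 0 and 2 neutrophil and 1 and 0 lymphocyte markers. They were 2 and 1 each for endothelial, stellate and cholangiocyte markers, and 0 and 2 of 3 adipocyte markers. Several, such as 2 of 7 neutrophil markers lower after castration, are near the shares over all genes. The part of the markers in the gene differences was not tested.

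Abhd5 had the largest decrease. It was at 26.4 to 60.7 (median 33.5) CPM in Ov Intact and 15.1 to 24.8 (median 21.2) CPM in Ov GDX mice, without overlap (log2 fold change -1.01, SE 0.12, adjusted p = 2.36e-09). In mice with testes it was at 22.9 to 46.2 (median 38.1) CPM in Te Intact and 10.5 to 27.0 (median 18.6) CPM in Te GDX mice, where 11 of 12 GDX mice lay below every Intact mouse (log2 fold change -0.99, SE 0.12, adjusted p = 9.49e-09). The activator of ATGL was thus 2.01-fold lower in Ov GDX and 1.98-fold lower in Te GDX mice. With library totals as the scale the log2 fold changes were -0.76 (adjusted p = 2.38e-08) and -0.77 (adjusted p = 3.84e-08), and with 1 surrogate variable -0.55 (adjusted p = 2.62e-05) and -0.72 (adjusted p = 6.41e-09). Pnpla8 was lower in both as well, by -0.52 (SE 0.07, adjusted p = 1.38e-08) and -0.56 (SE 0.07, adjusted p = 7.34e-09), and remained so on library totals.

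Scaling matters for these contrasts: the median log2 fold change of all genes was 0.06 (ovariectomy) and 0.07 (castration) with TMM, and 0.27 in both with library totals, and the share of calls that were higher after GDX went from 51.9% to 66.1% and from 52.7% to 69.5%. On library totals the ovariectomy values of Pnpla7 and Ces1d were -0.06 (adjusted p = 0.519) and -0.06 (adjusted p = 0.638), no longer called, and Mgll 0.28 (adjusted p = 0.0168) and Lipa 0.22 (adjusted p = 0.0286) were called higher. For castration G0s2 -0.24 (adjusted p = 0.184) and Mgll -0.19 (adjusted p = 0.109) were no longer called, and Lipe 0.38 (adjusted p = 0.0268) and Ces1d 0.32 (adjusted p = 0.0163) were called higher. With the share of reads outside genes as a covariate, which does not overlap between the cohorts, 0 of the 10 genes were called by edgeR in either contrast, 1 and 3 of them at an unadjusted p under 0.05. The share of multimapping reads, which did not overlap between Intact and GDX mice with either gonad, left Pnpla7 and Mgll called for castration, added Lipa -0.38 (adjusted p = 0.0173), and gave Pnpla3 0.09 (adjusted p = 0.970), Abhd5 -0.35 (adjusted p = 0.219) and Pnpla8 -0.17 (adjusted p = 0.260). Both covariates were added after seeing the data and were not run with DESeq2.

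Lipe, Pnpla7, Mgll and Pnpla3 were each called after only 1 kind of gonadectomy or by unequal amounts. Lipe was at 4.94 to 11.7 (median 6.40) CPM in Ov Intact and 11.4 to 17.4 (median 13.5) CPM in Ov GDX mice, and 11 of 12 ovariectomized mice exceeded every Intact mouse with ovaries (log2 fold change 0.87, SE 0.13, adjusted p = 1.57e-07). In Te Intact and Te GDX mice it was at 11.8 ± 2.69 and 13.5 ± 2.02 CPM (SD, n = 12 each) (log2 fold change 0.20, SE 0.13, adjusted p = 0.167). Pnpla7 was at 60.8 to 95.6 (median 78.9) CPM after castration, below all 12 Te Intact mice (log2 fold change -0.79, SE 0.08, adjusted p = 3.05e-11). After ovariectomy it was at 65.9 to 98.3 (median 80.3) CPM (log2 fold change -0.27, SE 0.08, adjusted p = 0.00217). Mgll was lower after castration (279 ± 52.7 in Te Intact and 216 ± 45.0 CPM in Te GDX mice, log2 fold change -0.38, SE 0.09, adjusted p = 0.000448) and gave 0.07 (SE 0.09, adjusted p = 0.475) after ovariectomy. Pnpla3 was at 0.137 to 5.27 (median 0.833) CPM after castration, and 7 of 12 castrated mice exceeded every Te Intact mouse (log2 fold change 1.73, SE 0.50, adjusted p = 0.00280). For ovariectomy its value was 0.10 (SE 0.43, adjusted p = 0.843).

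The remaining 3 calls were close to the threshold. G0s2 after castration (-0.45, SE 0.18, adjusted p = 0.0290) lost its call without mouse 4 of XX Te Intact, mouse 3 of XY Te Intact, mouse 3 of XX Te GDX or mouse 1 of XY Te GDX (adjusted p = 0.0601, 0.0856, 0.0519 and 0.0517). After ovariectomy it gave -0.31 (SE 0.18, adjusted p = 0.120) and was called without mouse 3 of XY Ov Intact (adjusted p = 0.0382). Pnpla2 (0.23, SE 0.10, adjusted p = 0.0393) and Ces1d (-0.34, SE 0.15, adjusted p = 0.0429) after ovariectomy lost theirs without any of 11 and any of 13 mice.

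The difference between the 2 GDX effects (castration minus ovariectomy) was tested directly. Lipe (log2 fold change -0.67, SE 0.18, adjusted p = 0.0190), Pnpla7 (log2 fold change -0.53, SE 0.11, adjusted p = 0.00151) and Mgll (log2 fold change -0.46, SE 0.13, adjusted p = 0.0284) were called, each with the castration effect below the ovariectomy effect. Of all genes 5.60% were called, 2.82% in this direction, and 2.78% in the other, beside 3 and 0 of these 10. The difference for Pnpla3 was 1.63 (95% interval 0.29 to 2.96) and did not pass (adjusted p = 0.131), but was called with 1 surrogate variable, at 2.03 (adjusted p = 0.0390). On library totals only Pnpla7 kept its call, and Lipe and Mgll had adjusted p = 0.0621 and 0.0615. By its make-up this contrast equals the gonadal effect in Intact mice minus the difference between former ovaries and former testes after GDX, given next. The 3 differences are therefore not separate from the gonadal differences above.

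Mice with former ovaries and former testes were compared after GDX (Ov GDX against Te GDX). Pnpla7 was at 79.6 ± 10.5 and 79.5 ± 10 CPM (SD, n = 12 each), with a log2 fold change of -0.00 (95% interval -0.16 to 0.15). Lipe was at 13.8 ± 1.73 and 13.5 ± 2.02 CPM, with 0.03 (95% interval -0.23 to 0.28). For Pnpla3 the value was 0.10 (95% interval -0.77 to 0.98). Of the 10 genes 0 were called with edgeR or DESeq2, against 0.0908% of all genes with edgeR (0.0584% higher with former ovaries and 0.0324% with former testes), and only Mgll had an unadjusted p under 0.05 (253 ± 52.7 against 216 ± 45.0 CPM, log2 fold change 0.23, 95% interval 0.04 to 0.41).

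**Figure D3:**
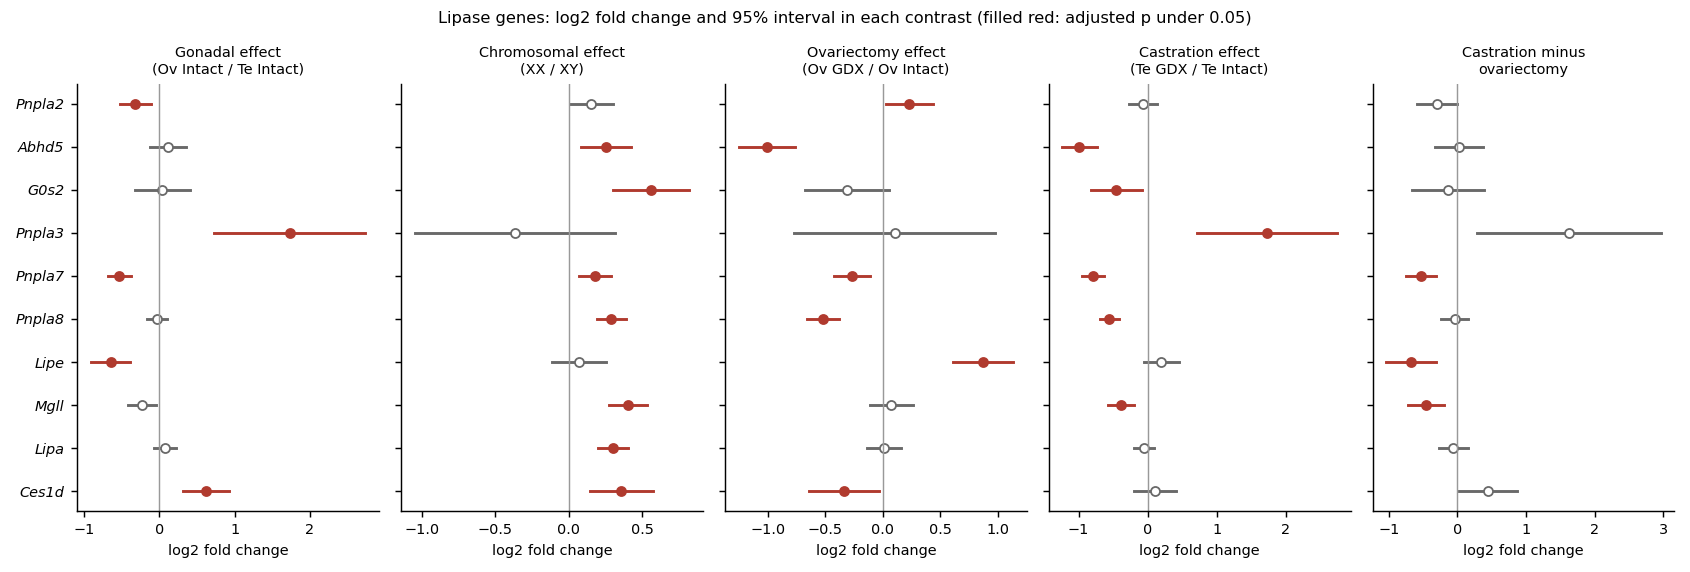
Log2 fold change (point) and 95% interval (line) of each gene in 5 contrasts of the edgeR fit. Filled red points have an adjusted p under 0.05. In the rightmost panel Pnpla7 (-0.53), Lipe (-0.67) and Mgll (-0.46) lie below 0, and in the chromosomal panel the 7 called genes lie above 0.

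The 8 groups were also ordered by their means for each gene. The ratio of the highest to the lowest group mean was 5.48 for Pnpla3 (XY Ov GDX over XY Te Intact), 2.61 for Abhd5 (XX Ov Intact over XY Ov GDX) and 2.30 for G0s2. It was lowest for Pnpla2, at 1.32. Neighbours in each order were compared by two-sided exact permutation tests, adjusted over the 7 pairs of a gene, which with 6 mice a group can reach p = 0.00216 unadjusted. As the order was set by the same values, the tested pairs were picked by them, and the p-values only describe the spread. For Pnpla7 1 pair was past an adjusted p of 0.05, XX Te Intact over XX Ov Intact. For Pnpla8 2 pairs were, XY Ov Intact over XX Ov GDX and XX Te GDX over XY Te GDX. In the other 8 genes no neighbour pair passed, which does not show that these groups were alike.

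Mice of the same group varied more in the Intact than in the GDX cohort for 9 of the 10 genes. The SD of log2 levels within groups was 0.32 in Intact and 0.14 in GDX mice for Pnpla2, 0.39 and 0.18 for Lipe, and 0.21 and 0.12 for Lipa. Pnpla3 was the exception, with 0.64 and 0.84. Across all tested genes the median ratio of Intact to GDX spread was 1.54, so most genes varied more in Intact mice. Among tested genes with a mean of at least 10 CPM it was 1.96. The members ranged from 0.77 to 2.25, and only Pnpla2 and Lipe were above 1.96.

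Some members moved together among mice of the same group. The correlations below are Spearman's rho of each mouse's deviation from its group mean, over 48 mice that share the scaling of their own library, and are descriptions. Pnpla2 and Lipe, the lipases of the triglyceride and diacylglycerol steps, went together (rho 0.67), in Intact (0.74, 24 mice) as in GDX mice (0.61, 24 mice). Mgll went with both (rho 0.58 with Pnpla2 and 0.50 with Lipe). Pnpla3 went with Lipa (rho 0.57, 0.66 in Intact and 0.52 in GDX mice).

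Other pairs did so in Intact mice alone or changed sign. Abhd5 and Pnpla8 gave rho 0.85 in Intact and 0.05 in GDX mice, and Abhd5 and Lipe -0.75 and -0.23. Pnpla3 and Lipe gave 0.41 in Intact and -0.78 in GDX mice, and Pnpla3 and Mgll 0.69 and -0.63. Whether these values differ between cohorts was not tested. In Intact mice several members also went with the TMM factor of the library: Pnpla8 (-0.84), Abhd5 (-0.83), Ces1d (-0.83), Pnpla2 (0.73) and Lipe (0.68). In GDX mice this was 0.05 for Abhd5, -0.40 for Lipe and 0.57 for Pnpla3. Its part in the correlations was not tested.

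**Figure D4:**
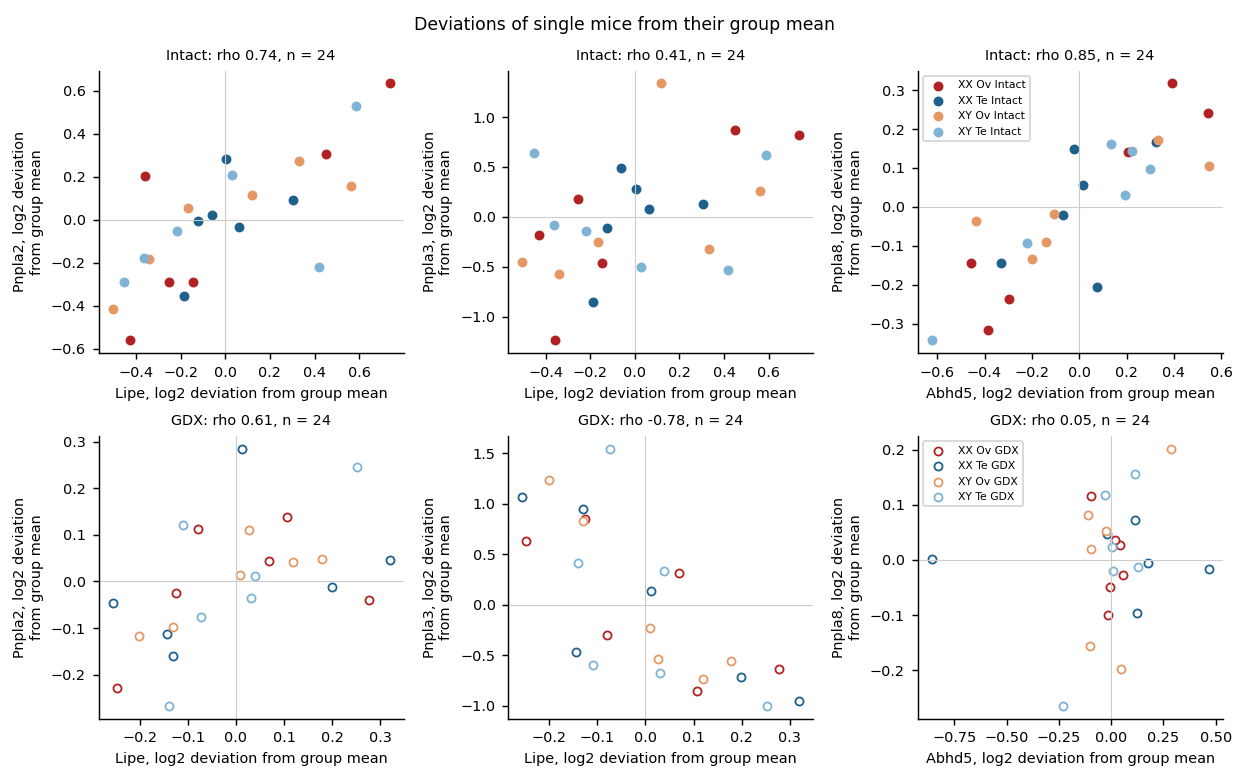
Log2 deviation of each mouse from its group mean for 3 pairs of genes, in 24 Intact (upper row) and 24 GDX mice (lower row), coloured by group. Pnpla2 rises with Lipe in both rows (rho 0.74 and 0.61), Pnpla3 rises with Lipe in the upper and falls in the lower row (0.41 and -0.78), and Pnpla8 rises with Abhd5 in the upper row (0.85).

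Likeness to each member was ranked by the same measure over 48 mice, among tested genes whose log2 CPM averaged 0 or more, and is given for the top 3 genes of each member but Pnpla3. Lipe was most like Fads6 (0.82), Rbck1 (0.82) and Reep6 (0.81), and Pnpla2 most like Tbc1d20 (0.81), Rnpepl1 (0.79) and Pacsin3 (0.79). Mgll was most like Paqr7 (0.78), Crat (0.77) and Tmed4 (0.76), of which Crat transfers acetyl groups to carnitine. For the partners of ATGL the leading genes were Tspan31 (0.80), Gnpat (0.78) and Mpst (0.75) beside G0s2 and Cmpk1 (0.83), Tfpi2 (0.83) and Lztfl1 (0.82) beside Abhd5. Lipa was closest to Elovl5 (0.77), Aqp8 (0.76) and Corin (0.74), and Ces1d to Dnajb6 (0.87), Nampt (0.84) and Gsta3 (0.83). Pnpla8 was closest to Yme1l1 (0.87), 2610002M06Rik (0.87) and Atl2 (0.87), and Pnpla7, which had the weakest likenesses, to Tmed4 (0.68), Gtf2b (0.57) and Dirc2 (0.55).

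Genes that work beside the lipases were counted in lists of related function. Over all tested genes the shares called were 14.1% higher with ovaries and 11.3% with testes, 21.9% higher in XX and 14.8% in XY, 36.0% higher and 33.4% lower after ovariectomy, 33.4% higher and 29.9% lower after castration, and 2.78% above and 2.82% below 0 for castration minus ovariectomy. With lists of 2 to 18 genes, many of the counts below, those after GDX above all, are near these shares, and none was tested against them. Among droplet proteins that bind or block the lipases (perilipins, CIDE proteins, Hilpda), 8 of 9 were tested, and the counts were 0 higher with ovaries and 5 with testes, 6 higher in XX and 0 in XY, 3 higher and 2 lower after ovariectomy, 0 higher and 4 lower after castration, and 0 above and 2 below 0 for castration minus ovariectomy. Their median log2 fold change was -0.44 for the gonadal and 0.50 for the chromosomal effect, against 0.04 and 0.05 over all genes. Cidec, which fuses lipid droplets, was at 2.73 to 20.8 (median 6.54) CPM in Ov Intact and 6.07 to 98.2 (median 25.2) CPM in Te Intact mice (log2 fold change -1.92, SE 0.36, adjusted p = 8.56e-05), and at 0.998 to 39.4 (median 5.40) CPM after castration. Cidea, its relative, had under 3 reads in all 12 Ov Intact mice and 0 to 7.72 (median 0.986) CPM in Te Intact mice. It stands on the adipocyte list as well and is part of the sum of that list. Adipoq, Lep and Plin1 of the same list did not reach 3 reads in any mouse.

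Among other carboxylesterases 14 of 18 were tested, with 3 higher with ovaries and 4 with testes, 7 higher in XX and 0 in XY, 2 higher and 6 lower after ovariectomy, 5 higher and 7 lower after castration, and 2 above and 3 below 0 for castration minus ovariectomy. Ces4a was at 0.357 ± 0.162 CPM with ovaries and 1.61 ± 1.25 CPM with testes (SD, n = 12 each; log2 fold change -2.08, SE 0.29, adjusted p = 5.33e-07), and Ces3b at 86.7 ± 36.3 and 211 ± 106 CPM (log2 fold change -1.22, SE 0.27, adjusted p = 0.000703), opposite in direction to Ces1d. Of the other patatin-domain genes 2 of 3 were tested, and both differed by gonad. Pnpla5, a droplet protein of the same family as Pnpla3, was at 0.0521 to 1.75 (median 0.849) CPM with ovaries and 0 to 1.27 (median 0.200) CPM with testes (log2 fold change 1.88, SE 0.53, adjusted p = 0.00821), with under 3 reads in 1 and 5 of 12 mice. Pnpla6, the closest relative of Pnpla7, was at 16.0 ± 5.07 and 22.0 ± 4.05 CPM (log2 fold change -0.46, SE 0.12, adjusted p = 0.00484). Pnpla6 was higher after castration (log2 fold change 0.37, SE 0.12, adjusted p = 0.00706), where Pnpla7 was lower. The remaining counts for this list were 0 for the chromosomal effect in either direction, 1 higher and 1 lower after ovariectomy, and 1 higher after castration.

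The 10 lysosomal partners of acid lipase were all tested, with 3 higher with ovaries and 0 with testes, 3 higher in XX and 2 in XY, 5 higher and 4 lower after ovariectomy, 5 higher and 3 lower after castration, and 1 above and 0 below 0 for castration minus ovariectomy. Npc2, which carries cholesterol out of lysosomes, was at 146 ± 44.7 and 90.2 ± 34.0 CPM (log2 fold change 0.70, SE 0.14, adjusted p = 0.000375), and the protease Ctsb at 753 ± 83.3 and 578 ± 77.3 CPM (log2 fold change 0.38, SE 0.07, adjusted p = 3.51e-05). Lipa itself was not called in that contrast. Of 7 other diacylglycerol and monoacylglycerol hydrolases, the counts were 1 higher with ovaries and 2 with testes, 3 higher in XX and 2 in XY, 4 higher and 1 lower after ovariectomy, 3 higher and 2 lower after castration, and 0 above and 0 below 0 for castration minus ovariectomy. Daglb, a diacylglycerol lipase, was higher with testes (log2 fold change -0.50, SE 0.12, adjusted p = 0.00179), as was Ddhd2 (log2 fold change -0.26, SE 0.07, adjusted p = 0.00896).

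Lipases that act in the circulation and their regulators (11 genes) gave 0 higher with ovaries and 1 with testes, 4 higher in XX and 2 in XY, 2 higher and 3 lower after ovariectomy, 0 higher and 4 lower after castration, and 0 above and 1 below 0 for castration minus ovariectomy. The only one called by gonad was Lmf1, a factor that lipoprotein lipase needs to mature, at 17.9 ± 4.77 and 24.9 ± 3.11 CPM (log2 fold change -0.48, SE 0.09, adjusted p = 4.16e-05). The 18 kinases and factors that act on lipolysis gave 1 higher with ovaries and 4 with testes, 6 higher in XX and 2 in XY, 9 higher and 3 lower after ovariectomy, 5 higher and 4 lower after castration, and 1 above and 2 below 0 for castration minus ovariectomy. Gbf1, which takes part in delivering ATGL to droplets, was at 29.0 ± 11.0 and 43.2 ± 10.9 CPM (log2 fold change -0.58, SE 0.13, adjusted p = 0.00153), and Nr1h3, which encodes the oxysterol receptor LXR-alpha, at 155 ± 52.6 and 107 ± 21.4 CPM (log2 fold change 0.53, SE 0.13, adjusted p = 0.00178).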

How the data were processed

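Liver RNA-seq libraries of 48 FCG mice (8 groups of 6, grouped by the genotype and treatment labels) were sequenced by the authors, aligned to GRCm39 and counted per gene with STAR 2.7.10a. The authors deposited whole-number read counts per gene for each mouse, without normalization. The annotation release, strand setting and trimming are not given in the sources used here. The authors' own tests used DESeq2 1.36.0.

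Identifiers were matched to symbols with the gene name table supplied (31020 of 55414 matched, 10 of 10 members and 148 of 148 listed symbols). Rows that name no gene (unmapped, multimapping, outside genes, ambiguous) stayed out of library sizes. Reads outside genes made up 3.47 to 11.3% and multimapping reads 8.59 to 18.9% of a library. Exon lengths came from the NCBIM37 annotation and promoters from RefSeq on GRCm38.p6, which are other builds than that of the counts, so no coordinate was carried between them.

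Genes passing filterByExpr (15414) were fitted in edgeR 4.0.16 (R 4.3.3) with TMM scaling, 8 group means over all 48 mice, a robust quasi-likelihood test and Benjamini-Hochberg adjustment over all tested genes. The fit was tested on simulated data for the gonadal contrast only, with the same dispersion for every gene and no difference between the cohorts. The other contrasts were not simulated. Fold changes are on the log2 scale, and deviations for correlations used log2(CPM + 0.5). Totals of 13071874 to 20045141 reads put 3 reads, the limit of a count of 0, at 0.150 to 0.230 CPM (counting error alone). Alternatives were size factors of the DESeq2 kind (RLE scaling within edgeR), the Wald test of DESeq2 1.42.0, library totals and other count filters. Further ones were only the groups compared, 1 surrogate variable (sva 3.50.0) and each mouse left out in turn. Those added later are named as such. Group orders used exact permutation tests (scipy 1.17.1).

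The members were named by role, with no threshold on a value, and both they and the gene lists were chosen with earlier results of these data known. All 10 members are named, with the 2 genes of each other list that changed most among those called for the gonadal effect or for castration minus ovariectomy, and the leading 3 of the 5 genes most like each member. The genes most like Pnpla3 are not reported here. Mice are separate animals, and shared litters or cages are not given in the sources used here.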

Additional observations from a re-analysis of the deposited data

Results flagged for a closer look

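In 8 of 80 combinations of gene and group, the highest mouse stood apart from the other 5 by a gap of more than 0.625 of the group's range. Highest and lowest mice were both checked, and this limit has a nominal rate of 1 in 20 groups over both ends. That rate assumes a normal spread, which CPM need not have, and the combinations share mice. The flags are therefore not read as an excess over chance. For Pnpla3 these were mouse 1 of XY Ov Intact, at 3.50 CPM with the next mouse at 1.40, and mouse 4 of XY Te GDX, at 5.27 CPM with the next at 2.13. Lipa was at 407 CPM in mouse 3 of XX Ov Intact (next 343) and at 407 CPM in mouse 3 of XX Te GDX (next 329). Mouse 1 of XY Ov GDX was apart for 2 genes, Pnpla7 at 82.2 CPM (next 71.5) and Abhd5 at 20.1 CPM (next 17.0). Mgll was at 349 CPM in mouse 5 of XX Ov GDX (next 296), and Ces1d at 1080.0 CPM in mouse 3 of XY Te Intact (next 777). The gonadal and castration calls of Pnpla3 held when either of its 2 mice was left out.

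The effect of gonadectomy differed between mice with testes and mice with ovaries for 3 genes, by the test of the difference itself (castration minus ovariectomy, edgeR). The log2 differences were -0.53 for Pnpla7, -0.67 for Lipe and -0.46 for Mgll. They equal the gonadal effect in Intact mice minus that of former gonads after GDX and are not a separate finding.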

How the results depend on the processing

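Of the single-gene values, 429 kept their side of the threshold under the settings listed with the methods, 19 lost their call, 10 gained one and 2 reversed. The 2 were the ovariectomy values of Pnpla2 (-0.069) and Ces1d (0.25) with 1 surrogate variable. A change of sign was counted as reversed only if the value was called in either fit. The 429 therefore include uncalled values that changed sign, such as Pnpla3 for ovariectomy (0.10, and -0.84 with 1 surrogate variable). For castration minus ovariectomy, library totals left 1 of 3 genes called. With 1 mouse left out, 3317 values kept their side of the threshold, 32 lost and 11 gained a call, and none reversed by this rule. Uncalled values could change sign here as well, as that of Pnpla3 for ovariectomy did (-0.12 to 0.41). The number of genes called then ranged from 4 to 6 (gonadal), 6 to 8 (chromosomal), 4 to 7 (ovariectomy), 5 to 6 (castration) and stayed at 3 for castration minus ovariectomy and at 0 for former gonads and the interaction.

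Alternatives chosen after seeing the data moved more, and the causes were not tested. The chromosomal effect in Intact mice alone called 3 genes. The share of multimapping reads as a covariate called 3 genes for ovariectomy, 3 for castration and 5 for castration minus ovariectomy, and G0s2 reversed for castration (0.11). The share of reads outside genes, which does not overlap between Intact and GDX mice and so leaves little of the GDX contrasts to estimate, called 0 genes for ovariectomy and 0 for castration by edgeR (1 and 3 at an unadjusted p under 0.05). It reversed Pnpla2 (-0.091), Pnpla7 (0.37), Pnpla8 (0.18), Abhd5 (0.23), Lipe (-0.18) and Ces1d (0.86) for ovariectomy, and Pnpla3 (-1.13), Pnpla8 (0.15), Abhd5 (0.28) and G0s2 (1.22) for castration.

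Over all genes, gonadal calls numbered 3907, with 1693 in a fit of the groups compared, 7741 with the multimapping covariate and 5994 without the 4 mice at or above 15% multimapping. Leaving out these 4 mice, all of XY Te Intact, was also chosen after seeing the data. Ovariectomy calls numbered 10695, with 6313 (surrogate variable), 6346 (multimapping) and 20 (reads outside genes). Castration calls numbered 9758, with 1819 (multimapping) and 1161 (reads outside genes). Castration minus ovariectomy gave 863 calls, with 506 (no filter), 5565 (multimapping), 3042 (without the 4 mice) and 1587 (reads outside genes). The chromosomal effect gave 5657 calls, and 1648 in Intact mice. The interaction gave 327 calls, with 661 (DESeq2), 635 (mean of at least 10 counts), 545 (library totals), 5 (without the 4 mice), 15 (multimapping) and 2 (reads outside genes). Former gonads gave 14 calls, with 25 (DESeq2) and 33 (only the groups compared).

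No paired analysis was possible because each mouse has its own identifier in the labels and no number is shared between groups. Depth limits Pnpla3, with a median of 14.5 reads per mouse.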
